A study of Homo sapiens with 3 samples.

Results

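A set of 10 genes of DNA replication licensing was followed in PC3 cells after knockdown of USP16: the helicase subunits MCM2, MCM3, MCM4, MCM5, MCM6 and MCM7, the loading factors CDC6 and CDT1, and the activation factors MCM10 and CDC45. They were taken by symbol from a table of 60930 genes, where each symbol stood once, and all 10 averaged 1 TPM or more across the libraries, as did 13637 genes in all (the expressed genes). PC3 is an androgen-independent prostate cancer cell line that lacks p53. It was stably transformed with a pLKO.1 hairpin vector under puromycin selection, carrying shCON (the vector control), shUSP16#1 or shUSP16#2, and RNA-seq was made of 1 library per condition. Whether each line was a pool or 1 clone is not given in the sources used here, and no difference below has a replicate check.

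Origins of replication are licensed in G1, when the origin recognition complex, CDC6 and CDT1 place rings of MCM2 to MCM7 on the DNA as inactive helicases. At the start of S phase CDC45 and the GINS complex join the ring to form the active helicase, and MCM10 is needed for it to unwind DNA. Geminin and the degradation of CDT1 keep origins from being licensed again in the same cycle. Transcription of these genes is largely under E2F control, and MCM proteins are used as markers of cells that are able to proliferate. In bulk RNA, fewer cycling cells and less of each transcript per cell cannot be told apart.

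USP16 itself was at 19.9 TPM in shCON, 3.5 TPM in shUSP16#1 and 1.08 TPM in shUSP16#2. Differences are given as log2(TPM + 1) of a hairpin library minus shCON, so that -1 is a 2-fold lower value and low genes are understated. The median of the expressed genes was -0.17 under shUSP16#1 and -0.37 under shUSP16#2 on this scale, and values relative to it are also given. TPM keeps no record of depth, so no interval can be attached to any value. Of the epithelial markers, KRT8 was at 622 to 748 TPM and KRT18 at 778 to 947 TPM, while EPCAM was lower in both knockdown libraries, at 274, 166 and 136 TPM in shCON, shUSP16#1 and shUSP16#2. KLK3, which encodes prostate-specific antigen, was listed at 0 TPM in all 3 libraries. Of 3 markers of other cell types, PTPRC did not exceed 0.14 TPM, while PECAM1 was at 0.14, 0.72 and 1.28 TPM in shCON, shUSP16#1 and shUSP16#2 and COL1A1 at 4.19, 10.7 and 4.78 TPM. Their sum was 4.47, 11.5 and 6.2 TPM, and their part in the results was not tested.

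All 6 subunits of the helicase ring were lower in both knockdown libraries than in shCON, although MCM2, MCM3, MCM5 and MCM7 turned higher under shUSP16#2 when taken relative to the median of the expressed genes. MCM4 was the most abundant of them, at 286 TPM in shCON, 189 TPM in shUSP16#1 and 151 TPM in shUSP16#2. MCM6 was the least abundant, at 37.8, 22.9 and 20.6 TPM in the same order. As deposited, these 2 subunits stood lowest relative to shCON, with log2 differences of -0.59 and -0.92 for MCM4 and of -0.70 and -0.84 for MCM6. Relative to the median of the expressed genes they remained lower under both hairpins, at -0.42 and -0.55 for MCM4 and at -0.52 and -0.47 for MCM6.

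MCM2, MCM3, MCM5 and MCM7 made up the other part of the ring, and their levels under both hairpins lay nearer to shCON. MCM7 was at 148 TPM in shCON, 115 TPM in shUSP16#1 and 125 TPM in shUSP16#2. MCM2 was at 72.1, 52.8 and 55.8 TPM, and MCM5 at 42.6, 35.3 and 38.4 TPM. MCM3 was at 68.6, 59.8 and 59.9 TPM and thus kept 87.1% and 87.3% of its shCON level. The log2 differences were -0.37 and -0.24 for MCM7, -0.44 and -0.36 for MCM2, -0.26 and -0.15 for MCM5 and -0.20 and -0.19 for MCM3. All 4 were nearer to shCON than MCM4 and MCM6 were under each hairpin as deposited. With the trend over GC content removed, MCM6 was nearer than MCM2, MCM5 and MCM7, and under shUSP16#1 MCM4 was nearer than MCM2 and MCM7. Relative to the median of the expressed genes these 4 were lower under shUSP16#1, by -0.27 for MCM2 and -0.02 for MCM3 at the extremes. Under shUSP16#2 all 4 turned higher, from 0.0036 for MCM2 to 0.22 for MCM5.

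**Figure D1:**
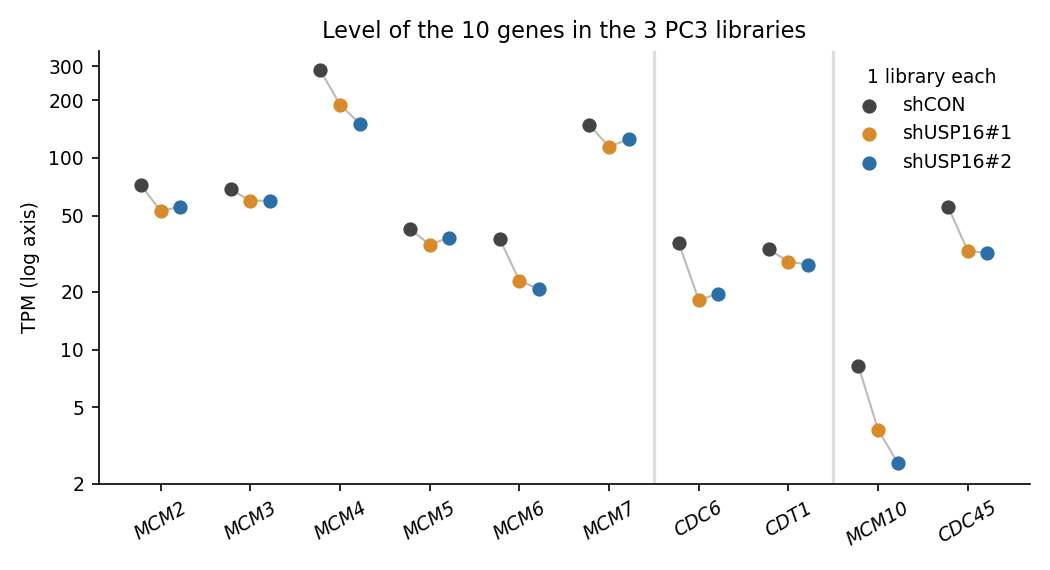
Level of each gene in TPM (log axis) in the shCON, shUSP16#1 and shUSP16#2 libraries, 1 point per library, with lines joining the points of a gene and vertical lines between subunits, loaders and activation factors. MCM4 is highest and MCM10 lowest in all 3 libraries, and each gene is highest in shCON, although relative to the median of the expressed genes 5 of the 10 were higher under shUSP16#2.

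The ring holds 1 copy of each subunit, so the 6 transcript levels were also set against their sum. TPM is a level per length, which allows genes to be compared. The summed TPM of MCM2 to MCM7 was 656 in shCON, 475 in shUSP16#1 and 451 in shUSP16#2, or 72.4% and 68.8% of shCON. MCM4 held 43.7% of this sum in shCON, 39.9% in shUSP16#1 and 33.5% in shUSP16#2. The ratio of MCM4 to MCM7, the next in abundance, was 1.93, 1.65 and 1.21. With the trend over GC content removed, the log2 differences were -0.54 and -0.90 for MCM4 and -0.61 and -0.61 for MCM7. MCM7 was then lower than MCM4 under shUSP16#1. Without MCM4, an alternative chosen after seeing the data, the sum was at 77.3% and 81.1% of shCON. MCM7 held 22.6%, 24.1% and 27.8% of the full sum, and MCM6 5.76%, 4.83% and 4.57%. The ratio of MCM4 to MCM6, the highest to the lowest subunit, came to 7.59, 8.26 and 7.33 in the same order. MCM2 and MCM3 exchanged places in the order between shCON and both knockdown libraries, where they differed by under 8 TPM in every library.

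**Figure D2:**
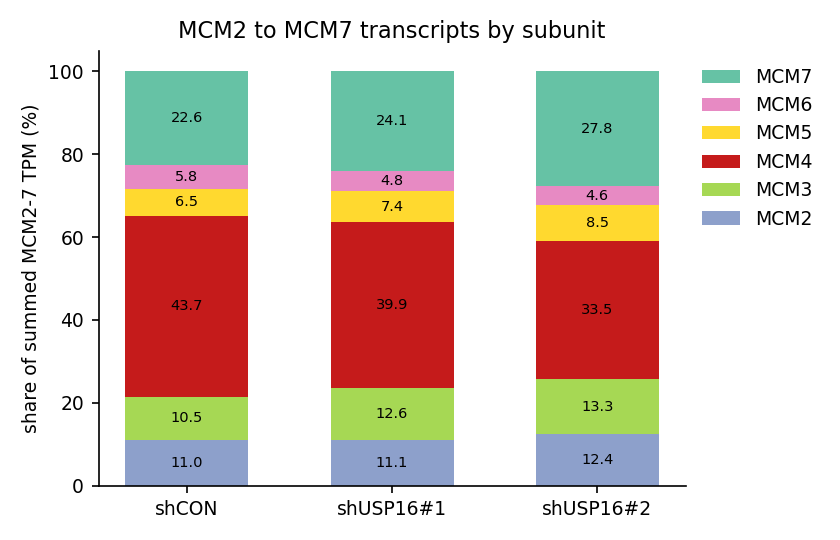
Share of the summed TPM of MCM2 to MCM7 held by each subunit (%), 1 bar per library. The MCM4 segment is 43.7% in shCON and 33.5% in shUSP16#2, and the MCM7 segment is 22.6% and 27.8%.

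The loading factors differed from each other as deposited. CDC6, the ATPase that recruits the ring to the origin recognition complex, was at 35.8 TPM in shCON, 18.2 TPM in shUSP16#1 and 19.6 TPM in shUSP16#2. CDT1, which brings the ring to CDC6, was at 33.4, 28.8 and 27.7 TPM. CDC6 was thus at 50.8% and 54.8% of its shCON level, against 86.3% and 83.1% for CDT1. The log2 differences were -0.94 and -0.84 for CDC6, and -0.21 and -0.26 for CDT1, of which only the value of CDT1 under shUSP16#2 turned higher (0.11) relative to the median of the expressed genes. The ratio of CDC6 to CDT1 was 1.07 in the control and 0.631 and 0.707 in the knockdown libraries. With the trend over GC content removed, the log2 differences were -0.76 and -0.61 for CDC6 and -0.61 and -0.84 for CDT1. CDT1 was then lower than CDC6 under shUSP16#2.

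Both activation factors were lower in the knockdown libraries. MCM10 was the least abundant of the 10 genes, at 8.25 TPM in shCON, 3.82 TPM in shUSP16#1 and 2.57 TPM in shUSP16#2. It was the lowest of the 10 by the mean of both hairpins, with log2 differences of -0.94 and -1.37, and this mean lay at percentile 6.79 of the expressed genes. CDC45 was at 55.7, 32.8 and 31.9 TPM, with log2 differences of -0.74 and -0.79. Relative to the median of the expressed genes the values were -0.77 and -1.01 for MCM10 and -0.57 and -0.42 for CDC45.

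**Figure D3:**
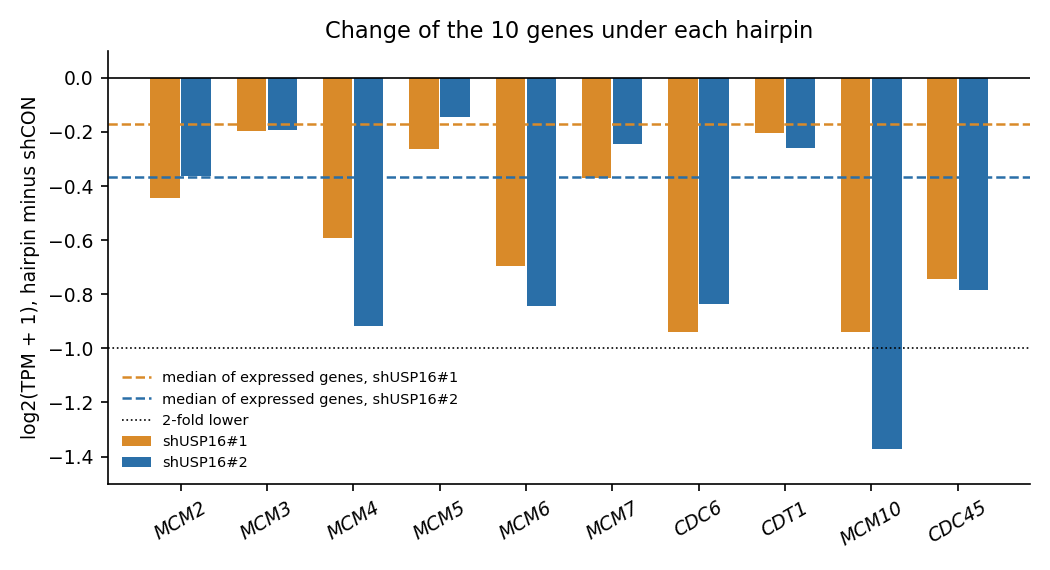
Difference of each gene from shCON on the log2(TPM + 1) scale under shUSP16#1 and shUSP16#2, 1 library each and hence without error bars. Dashed lines mark the median of the expressed genes under each hairpin (-0.17 and -0.37), the dotted line a 2-fold lower value. All bars point down, but those of MCM2, MCM3, MCM5, MCM7 and CDT1 under shUSP16#2 do not reach the dashed line of that hairpin.

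Set against all expressed genes, the 10 genes were alike in direction rather than in size. All 10 were lower than shCON under both hairpins, as were 57.2% of the expressed genes, and 5 of the 10 kept this direction under both relative to the median of the expressed genes. On the log2(TPM + 1) scale none was at least 2-fold lower under both, against 4.6% of the expressed genes. This count rests on the pseudocount: MCM10 was at 46.3% and 31.2% of its shCON TPM, and with a pseudocount of 0.1 it passed under both hairpins (-1.09 and -1.64), as did 8.03% of the expressed genes. With the pseudocount of 1, 0 of 10 passed under shUSP16#1 alone (5.79% of the expressed genes), and under shUSP16#2 alone 1 of 10 did, MCM10 (19.5%). None was 2-fold higher under both, against 1.14%. The median of the 10 stood at -0.52 for shUSP16#1 and -0.57 for shUSP16#2, and at -0.35 and -0.21 relative to the median of the expressed genes. For MCM2 to MCM7 the medians were -0.41 and -0.30, of which the second turned to 0.064 when taken relative to the expressed genes, and for CDC6, CDT1, MCM10 and CDC45 they were -0.84 and -0.81. The 5 genes below the median of the expressed genes under both hairpins were MCM4, MCM6, CDC6, MCM10 and CDC45, and 41.7% of the expressed genes were as well.

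shUSP16#2 left less USP16 transcript than shUSP16#1, and the 2 libraries were also compared with each other. Of the 10 genes, 5 (MCM4, MCM6, CDT1, MCM10 and CDC45) were lower under shUSP16#2 than under shUSP16#1, against 73.4% of the expressed genes. MCM4 and MCM10 differed by more than 0.3 between the hairpins on the log2(TPM + 1) scale, at -0.32 and -0.43 with shUSP16#2 the lower. The median difference between the hairpins was -0.02 over the 10 genes, and it turned to 0.18 relative to the median of the expressed genes and to 0.088 with TPM rescaled over protein-coding genes. Genes other than the protein-coding ones held 6.75%, 4.74% and 11.3% of all TPM in shCON, shUSP16#1 and shUSP16#2.

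The order of the 10 genes went in part with the GC content of their transcripts, a trend shared with the rest of the table. CDC45 (51.4%) and MCM3 (51.6%) were alike in GC content, but their mean differences over both hairpins were -0.76 and -0.19. The GC content of the longest GENCODE transcript ran from 43.1% for MCM6, 43.3% for MCM10 and 45.5% for CDC6 to 57.6% for MCM7, 58.1% for MCM2 and 64.9% for CDT1. Over these 10 genes the rank correlation of the difference with GC content was 0.72 under each hairpin, and over 13296 expressed genes it was 0.53 and 0.63. These are correlations across genes that share libraries, and genes are not independent replicates. Each gene was therefore also set beside the expressed genes within 1 percentage point of its own GC content. CDT1 was at -0.44 and -0.43 relative to the median of its 375 GC neighbours. MCM2 was at -0.53 and -0.39 relative to its 828 neighbours, and MCM7 at -0.46 and -0.26 relative to 844. The GC-poor genes stood closer to theirs than to all genes, with MCM6 at -0.28 and -0.12, CDC6 at -0.62 and -0.26 and MCM10 at -0.52 and -0.65. Relative to their neighbours CDC45 was at -0.62 and -0.49, MCM4 at -0.36 and -0.47 and MCM5 at -0.36 and -0.17. MCM3 was at -0.08 and 0.088 and was the only one of the 10 with a value above the median of its neighbours.

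With the GC trend removed over all expressed genes, the 10 genes were closer to each other. The medians were then -0.61 under shUSP16#1 and -0.68 under shUSP16#2, and all genes but MCM3 were lower than the median of the expressed genes under both hairpins. As deposited, 41.7% of the expressed genes were lower than that median under both. Their share is not given here with the GC trend removed, so the count has no background on that scale. With the GC trend removed CDT1 was at -0.61 and -0.84, MCM2 at -0.70 and -0.75 and CDC6 at -0.76 and -0.61. MCM6 was at -0.44 and -0.49, and thus nearer to shCON than MCM2, MCM5 (-0.54 and -0.54) and MCM7 (-0.61 and -0.61), the reverse of their order as deposited. CDC45 was at -0.73 and -0.85 and MCM4 at -0.54 and -0.90. MCM10, at -0.68 and -1.01, was still the lowest of the 10 under shUSP16#2. MCM3 remained at -0.18 and -0.26. Whether the GC trend comes from the libraries or from the knockdown cannot be told apart with 1 library per condition.

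**Figure D4:**
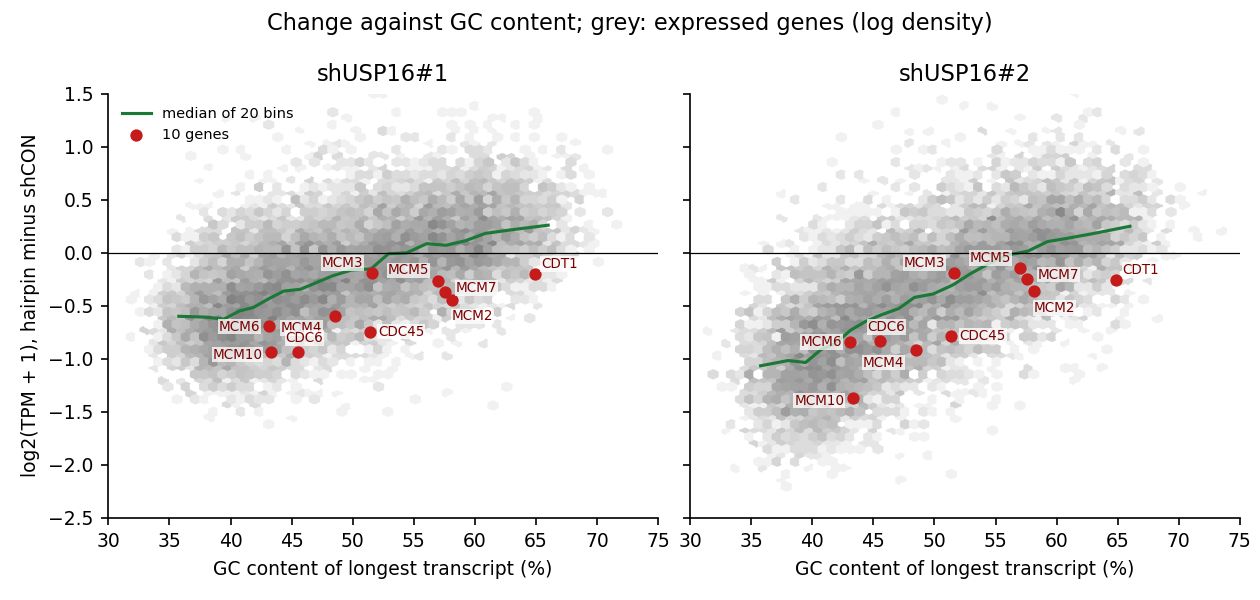
Difference from shCON on the log2(TPM + 1) scale against the GC content of the longest transcript (%), for shUSP16#1 (left) and shUSP16#2 (right). Grey cells show the density of the expressed genes, the green line their median by GC content, and red points the 10 genes, all of which lie below 0 and most of which lie under the green line, MCM3 under shUSP16#2 being above it.

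MCM4 shares its start site with a gene of DNA repair. In GENCODE release 29 (GRCh38) MCM4 lies on the forward strand of chromosome 8 from 47960185 to 47978160, and PRKDC, which encodes the catalytic subunit of DNA-PK, starts 2 bases away on the opposite strand. PRKDC was at 140 TPM in shCON, 61.9 TPM in shUSP16#1 and 45.0 TPM in shUSP16#2. Its log2 differences of -1.16 and -1.62 were larger in size than those of MCM4 (-0.59 and -0.92). In both genes of the pair shCON was highest and shUSP16#2 lowest. Of the expressed genes, 57.2% were lower than shCON under both hairpins and 73.4% were lower under shUSP16#2 than under shUSP16#1.

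Of the other divergent pairs, MCM7 and AP4M1 differed in direction as deposited, and CDC45 and UFD1 were both lower under both hairpins as deposited, although UFD1 lay slightly above the median of the expressed genes. MCM7 lies on the reverse strand of chromosome 7 from 100092728 to 100101940, and AP4M1, a subunit of an adaptor complex, starts 391 bases away. AP4M1 was higher in both knockdown libraries than in shCON (7.71, 11.0 and 10.5 TPM), while MCM7 was lower as deposited and, relative to the median of the expressed genes, lower under shUSP16#1 alone. CDC45 lies on the forward strand of chromosome 22 from 19479459 to 19520612, with UFD1, a cofactor of the segregase VCP, 244 bases away. UFD1 was at 156, 141 and 122 TPM. MCM2 lies on the forward strand of chromosome 3 from 127598223 to 127622436, with TPRA1 44 bases away at 38.1, 35.0 and 38.7 TPM. MCM3 (chromosome 6, 52264009 to 52284881, reverse strand), MCM5 (chromosome 22, 35400063 to 35425430, forward), MCM6 (chromosome 2, 135839626 to 135876426, reverse), CDC6 (chromosome 17, 40287633 to 40304657, forward), CDT1 (chromosome 16, 88803213 to 88809258, forward) and MCM10 (chromosome 10, 13161554 to 13211104, forward) had no gene starting within 1000 bases on the opposite strand. Exons of TPRA1 and MCM2, and of AP4M1 and MCM7, overlap on opposite strands, and the sources used here do not say whether counting kept the strand, so that reads in the overlap cannot be assigned.

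Promoter windows from RefSeq (GRCh38.p14), 250 bases before to 50 bases after the most upstream start, were found for 8 of the 10 genes; MCM4 and MCM5 had none in the table. They were read for 4 motifs on both strands. The E2F motif, read as TTTCCCGC, TTTCGCGC, TTTGCCGC or TTTGGCGC, was present in 6 of the 8 windows and in 3.34% of 27305 gene windows of the same length. None of these words stood in the windows of MCM10 and CDC45. Near forms were not searched, and TTTGGCGG, which differs from TTTGGCGC in the last letter, stands in the MCM10 and CDC6 windows printed below. The CCAAT box (CCAAT) was present in 5 of 8 windows, against 35.7% of all, and the E-box (CACGTG), the core letters bound by MYC and other factors, in 2 (MCM2 and MCM7), against 7.41%. TTTGAA, the core of the CHR element, was in none of the 8 and in 15.5% of all. The letters do not show that a factor binds there. The 27305 gene windows were limited neither to expressed genes nor to windows of like GC content, so these shares are not a matched background. The 4 windows below are those of the members with the lowest and the highest mean difference from shCON (MCM10 and MCM3), of CDC6, and of MCM6, with letters of the E2F motif in capitals and all sequences written 5′ to 3′ on the strand of the gene.
MCM10 (chr10:13161308-13161607, forward strand): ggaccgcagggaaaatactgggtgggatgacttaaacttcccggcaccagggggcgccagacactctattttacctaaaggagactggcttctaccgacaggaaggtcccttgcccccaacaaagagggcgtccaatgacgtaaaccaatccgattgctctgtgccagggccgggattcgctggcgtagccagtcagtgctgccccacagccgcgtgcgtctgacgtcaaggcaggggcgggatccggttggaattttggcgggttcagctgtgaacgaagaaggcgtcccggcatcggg
CDC6 (chr17:40287629-40287928, forward strand): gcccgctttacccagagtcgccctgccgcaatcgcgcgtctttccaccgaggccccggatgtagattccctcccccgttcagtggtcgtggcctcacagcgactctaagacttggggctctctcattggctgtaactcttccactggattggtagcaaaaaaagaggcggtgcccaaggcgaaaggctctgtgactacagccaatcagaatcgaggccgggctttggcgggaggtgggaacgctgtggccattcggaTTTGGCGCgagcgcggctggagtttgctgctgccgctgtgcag
MCM6 (chr2:135876394-135876693, reverse strand): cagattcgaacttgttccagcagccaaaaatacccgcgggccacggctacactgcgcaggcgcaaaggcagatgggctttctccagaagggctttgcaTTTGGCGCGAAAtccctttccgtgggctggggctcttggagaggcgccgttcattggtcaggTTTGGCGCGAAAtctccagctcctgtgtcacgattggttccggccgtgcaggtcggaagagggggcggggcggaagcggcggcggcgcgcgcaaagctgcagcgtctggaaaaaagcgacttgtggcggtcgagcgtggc
MCM3 (chr6:52284693-52284992, reverse strand): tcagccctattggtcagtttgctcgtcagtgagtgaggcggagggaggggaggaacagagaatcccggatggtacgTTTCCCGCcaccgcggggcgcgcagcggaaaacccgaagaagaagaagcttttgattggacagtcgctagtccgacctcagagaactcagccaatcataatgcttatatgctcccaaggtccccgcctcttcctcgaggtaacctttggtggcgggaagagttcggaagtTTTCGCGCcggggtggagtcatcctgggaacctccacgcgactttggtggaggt

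In the MCM6 window the capitals form 2 identical stretches, each of which is 1 match on each strand that overlap by 4 bases, so 4 matches stand at 2 places. MCM6, with these 4 matches, was at -0.70 and -0.84 on the log2 scale, and MCM3, with matches at -174 and -4 bases from the start, at -0.20 and -0.19. MCM10, without a match, was lowest of the 10 under shUSP16#2 (-1.37) and by the mean of both hairpins, while CDC6, with 1 match, stood beside it under shUSP16#1 (-0.94 for both). These differences are as deposited, where they also varied with GC content. Near forms were not searched, and of the 3 windows listed for each of MCM7 and CDC45 only the most upstream was read. A relation of the differences to E2F was therefore not tested.

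Of the other genes that license origins or build the fork, 63 of 64 on 10 lists were expressed, the exception being MCMDC2, at 0.02 to 0.05 TPM. The lists were drawn up with earlier results of these data known. Among these 63, 56 stood lower than shCON with each hairpin (55 with TPM rescaled over protein-coding genes) and 3 stood higher with each, against 57.2% and 24.5% of the expressed genes. Lower than the median of the expressed genes with each hairpin were 46, against 41.7%. With the GC trend removed 43 were. The shares of 57.2% and 41.7% are as deposited and are also the background for the counts of each list below. No share is given here with TPM rescaled or with the GC trend removed, so counts on those scales have no background. At least 2-fold lower under both were 6, against 4.6%. The median of the 63 was -0.51 under shUSP16#1 and -0.84 under shUSP16#2, beside -0.52 and -0.57 for the 10 MCM and licensing genes. The median GC content of the 63 was 44.5%, and that of the 10 was 51.5%. With the GC trend removed the medians were -0.38 and -0.59 for the 63 and -0.61 and -0.68 for the 10, which reversed their order under shUSP16#2. From each list the genes with the lowest and the highest mean difference over both hairpins are given, in TPM in shCON, shUSP16#1 and shUSP16#2.

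The origin recognition complex, the platform on which licensing takes place, was lower in all 6 of its subunits under both hairpins, also relative to the median of the expressed genes, with medians of -0.82 and -1.23. ORC4 was lowest by the mean difference, at 36.1, 17.2 and 12.1 TPM, and ORC6 highest, at 32.1, 21.6 and 17.6 TPM. Its subunit transcripts are poor in GC, with a median of 40.6%, and the medians were -0.47 and -0.68 with the GC trend removed. The 4 GINS genes, partners of CDC45 in the active helicase, had medians of -0.41 and -0.66, from GINS3 (20.3, 11.8 and 10.3 TPM) to GINS1 (14.6, 12.1 and 10.2 TPM).

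The factors that fire licensed origins were lower under both hairpins in 7 of 8 cases, and in 6 relative to the median of the expressed genes, with medians of -0.79 and -1.01. DBF4, the activator of the kinase CDC7, was at 11.2, 4.15 and 3.54 TPM. RECQL4, a helicase of the RecQ family, was the exception, at 76.0, 80.2 and 73.2 TPM. Among the 7 genes that restrain licensing or act in the turnover of CDT1, all were lower under both hairpins, and 6 relative to the median of the expressed genes, with medians of -0.77 and -1.04. CUL4B, a scaffold of the ubiquitin ligase that marks CDT1, was at 12.7, 6.2 and 4.31 TPM, and DDB1, its adaptor, at 176, 170 and 163 TPM. GMNN, which encodes geminin and was chosen after its values were seen, was at 48.3, 27.8 and 18.6 TPM. As deposited, this was a larger relative difference than that of its partner CDT1 under each hairpin. The GC content was 43.6% for GMNN and 64.9% for CDT1, and they were not compared with the GC trend removed.

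The relatives of the ring subunits were MCM8 and MCM9, which act in recombination, and MCMBP, which binds MCM proteins. All 3 were lower under both hairpins, also relative to the median of the expressed genes. MCM8 was at 19.5, 7.21 and 5.62 TPM, with log2 differences of -1.32 and -1.63 that no ring subunit reached as deposited. The GC content was 42.0% for MCM8, beside a median of 54.3% for MCM2 to MCM7, and they were not compared with the GC trend removed. MCM9 was at 2.96, 1.91 and 1.02 TPM. The 4 genes of fork protection and claspin had medians of -0.75 and -1.15, between CLSPN (4.42, 1.64 and 1.17 TPM), which relays the replication checkpoint, and TIMELESS (23.4, 17.9 and 17.9 TPM). With the GC trend removed these medians were -0.43 and -0.53.

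Of 12 DNA polymerase genes 8 were lower (6 relative to the median of the expressed genes, 7 with TPM rescaled) and 2 higher under both hairpins, with medians of -0.30 and -0.42. POLA1, the catalytic subunit of polymerase alpha, was at 7.91, 3.11 and 2.49 TPM, and POLD4, a small subunit of polymerase delta, at 43.7, 62.4 and 81.0 TPM. The clamp PCNA and its loader were lower under both hairpins in all 6 genes, and in 5 relative to the median of the expressed genes, with medians of -0.63 and -0.79, from RFC1 (24.5, 11.5 and 7.34 TPM) to RFC2 (66.7, 59.2 and 62.8 TPM). Of 9 genes of single-strand binding and Okazaki fragment processing 7 were lower (4 relative to the median of the expressed genes) and 1 higher under both, with medians of -0.27 and -0.34, the latter turning to 0.026 relative to the expressed genes. DNA2, a nuclease and helicase, was at 7.93, 4.06 and 2.01 TPM, and RNASEH2A, the catalytic subunit of RNase H2, at 65.5, 69.9 and 80.6 TPM. All 4 genes of replication-coupled chromatin assembly were lower under both, and 3 relative to the median of the expressed genes, with medians of -0.42 and -0.52, between ASF1A (7.89, 4.5 and 2.69 TPM) and its paralogue ASF1B (90.6, 75.4 and 79.0 TPM).

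**Figure D5:**
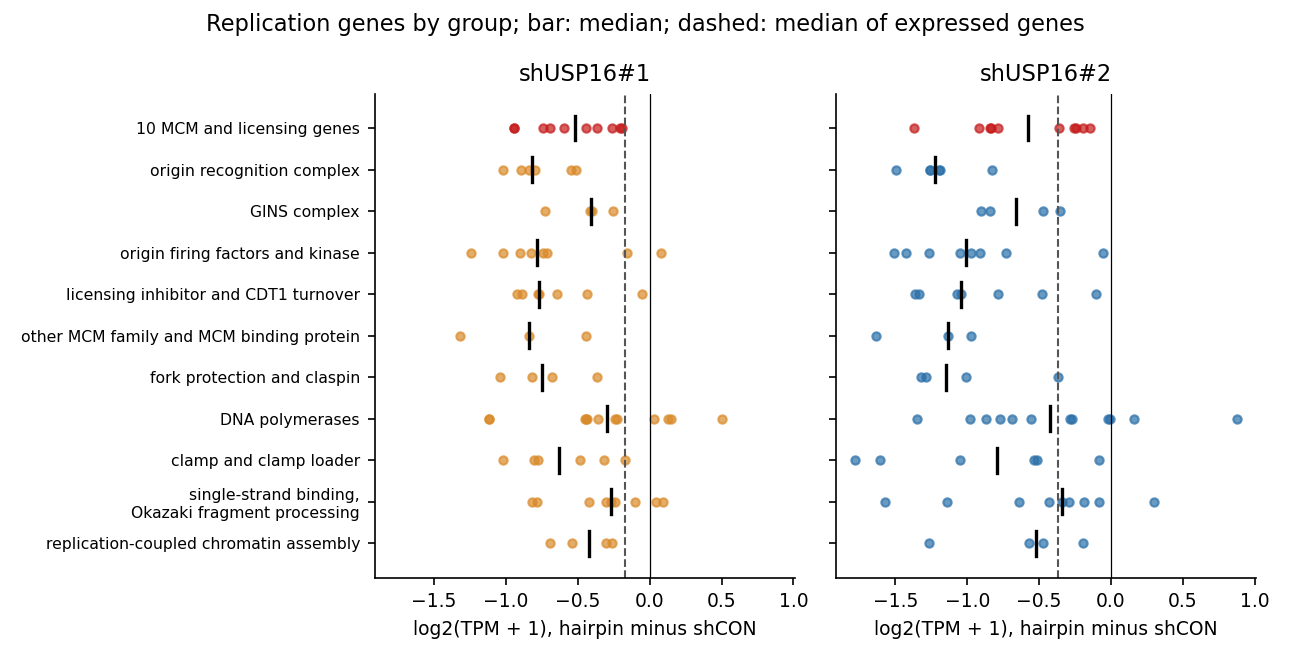
Difference of each expressed replication gene from shCON on the log2(TPM + 1) scale under shUSP16#1 (left) and shUSP16#2 (right), by list, with the 10 MCM and licensing genes at the top. Points are genes, bars the median of a list and dashed lines the median of the expressed genes, which the median of single-strand binding and Okazaki genes passes on the higher side under shUSP16#2. As deposited, the origin recognition complex has the lowest median under shUSP16#2 (-1.23), which it does not have with the GC trend removed (-0.68, against -0.74 for origin firing factors).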

How the data were processed

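Libraries were prepared with the Illumina TruSeq RNA kit from total RNA of PC3 cells, 1 library per condition, and sequenced by Majorbio. The authors deposited TPM values with 2 decimals per gene, made on the Majorbio Cloud Platform. The submitters' processing notes name CASAVA, HISAT2 and hg19, and the quantification tool and annotation are not given in the sources used here. The table gives no coordinates. Of its 60930 identifiers 58516 matched GENCODE release 29, from which gene places (GRCh38), gene types and GC content (longest transcript) were taken. The 3 TPM columns that repeat others were not used.

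For repeated names the entry with the highest mean was kept (59719 names), and genes averaging 1 TPM or more were used. Differences were taken on the log2(TPM + 1) scale. With 1 library per condition no test was made, and both comparisons share shCON. A gene was counted past a threshold at a 2-fold difference. For GC removal the median of 50 bins of GC content was subtracted and the median of all genes added back. The genes and lists were chosen with earlier results of these data known. By rule the text names all 10 genes, USP16, the genes of lowest and highest mean difference in each list, divergent neighbours within 1000 bases and the 3 protein-coding genes nearest in pattern; GMNN was added later. Procedures were tested on simulated data. Scripts ran under Python 3.11.15 with pandas 2.3.3, numpy 2.4.6, matplotlib 3.10.9 and scipy 1.17.1. Some of the marker genes chosen are not reported here.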

Additional observations from a re-analysis of the deposited data

How the results depend on the processing

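No paired analysis was possible because the design holds a single library for every condition. An alternative was counted as moving a value when it shifted it by more than 1.5 times. All 10 genes stayed lower than shCON under both hairpins with a pseudocount of 0.1 and with TPM rescaled over protein-coding genes. They also did with the GC trend removed. Of the 10, 5 did when centred on the median of the expressed genes and 9 with a length trend removed, which was added after seeing the data. As deposited 57.2% of the expressed genes were lower under both, and their share with each alternative is not given here. Removing a trend adds back the median of the expressed genes (-0.18 and -0.37 for GC content), so a typical gene also stays lower than shCON. Centred, the values under shUSP16#2 reversed to 0.0036 for MCM2, 0.17 for MCM3, 0.22 for MCM5, 0.12 for MCM7 and 0.11 for CDT1. The median of the 10 genes moved from -0.57 to -0.21 under shUSP16#2 and from -0.58 to -0.31 for the mean of both hairpins when centred. Over MCM2 to MCM7 alone, chosen after seeing the data, this mean was -0.36. The median difference between the hairpins, -0.02, became 0.18 when centred, 0.088 with TPM rescaled and -0.067 with the GC trend removed. The count of the 10 genes that were at least 2-fold lower with each hairpin, 0, became 1 with a pseudocount of 0.1 and 1 with shUSP16#2 alone. The same share of the expressed genes, 4.6%, was 1.19% with no minimum, 8.03% with a pseudocount of 0.1, 2.0% when centred and 2.05% with the GC trend removed. Among the lists, the mean of both hairpins moved when centred to -0.23 for GINS, -0.088 for DNA polymerases, -0.44 for the clamp and its loader, -0.053 for single-strand binding and Okazaki genes and -0.20 for chromatin assembly. With the GC trend removed it moved to -0.56 for the origin recognition complex, -0.58 for the licensing inhibitor and CDT1 turnover, -0.59 for the other MCM family and -0.44 for fork protection. The cause of these shifts was not tested, apart from centring, which subtracts the medians by construction. Depth is unknown, and values of few TPM such as MCM10 are the least certain.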

Other observations

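The introns of MCM7 hold the microRNA genes MIR106B, MIR93 and MIR25, which the table lists at 0 TPM in all 3 libraries. The mature microRNAs were not measured here.

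The pair of medians of the 10 genes was not a rare pattern. Of 8542 other protein-coding genes averaging 5 TPM or more, 190 had a pair of log2 differences within a distance of 0.1 of it. The nearest were ALDH9A1, an aldehyde dehydrogenase (61.8 TPM in shCON, 42.9 TPM in shUSP16#1 and 41.0 TPM in shUSP16#2), FH, the fumarate hydratase of the citric acid cycle (207, 144 and 138 TPM), and SETD3, a histidine methyltransferase of actin (21.5, 14.7 and 14.0 TPM). Likeness here rests on 2 differences that share the shCON library.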
